A study of Mus musculus with 10 samples.

Results

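The 8 genes described here are Nepn, Slc14a1, Ctnna2, Atoh7, Rgn, Pbld1, Cfap299 and Shisal2b, each read by a named probe on mouse ileum arrays and chosen, with the measured values known, as genes that stood highest when Sox2 and Oct4 were induced together. They are 8 of 19056 genes tested and of 27547 genes that had a probe. The study placed doxycycline-inducible transgenes in C57BL/6 mice aged 6 to 8 weeks and read total RNA of the ileum on 10 one-colour arrays, 2 for each of 5 groups. TetON-Sox2 mice were measured without doxycycline (DOX) and with it, and TetON-Oct4 mice, TetON-Sox2 X TetON-Oct4 mice (the double transgenic group) and rtTA control mice, which have no TetOP-Sox2 transgene, were measured with it only. DOX was given at 2 mg/ml in drinking water with 1% sucrose for 2 days. The labels used here do not name the promoter that drives rtTA, and no sample of the TetON-Oct4, double transgenic or rtTA mice without DOX was analysed here.

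In such mice rtTA, a bacterial repressor turned into an activator, binds its operator when DOX is present and switches on the transgene beside it. Sox2 and Oct4 (the product of Pou5f1) are transcription factors of early embryos and pluripotent cells that can bind neighbouring DNA sites as a partnered complex, and neither is a usual product of adult ileal epithelium. The 8 genes do not form a pathway. Nepn encodes nephrocan, a secreted leucine-rich repeat protein of the small leucine-rich proteoglycan class that is known from embryonic gut endoderm. Ctnna2 encodes the neural alpha-catenin, which ties cadherins to actin. Atoh7 is a basic helix-loop-helix factor needed for retinal ganglion cells. Rgn encodes regucalcin, a calcium-binding lactonase of liver and kidney that takes part in ascorbate synthesis, and Slc14a1 encodes the urea transporter UT-B. Pbld1 encodes a protein with a phenazine biosynthesis-like domain, Cfap299 a protein named for cilia and flagella, and Shisal2b a small membrane protein of the Shisa-like group.

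A level on these arrays is the brightness of a single probe, so the probe defines what was measured for each gene. The first 30 bases of the 60-base probes, as the array files give them, are shown for 7 of the 8 genes because every value that follows was read through them. The longest run of bases shared by any 2 of the 8 probes was 10, over 28 pairs, and the Pbld1 probe shared at most 7 bases in a row with the probes of its close relative Pbld2.
Nepn: catcagactcaacatggatgacgacgatga
Ctnna2: tctaaacttgaactctgactttgctagaca
Atoh7: atgagtggacatcgcgaatgactttggact
Rgn: agttcaactatcaatcagcctgatgatggc
Pbld1: cagggtatggtcctgagcaacatgcaaaag
Cfap299: ttaagcaccacacagtaaatggtttcctta
Shisal2b: cacaaatcaatattgcctgttagttaaaat

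On mm8, the build that 6 of the 10 array files name (the 4 TetON-Sox2 files name an older build, whose positions were not used), the Nepn probe lies at chr10:52092719-52092778, the Ctnna2 probe at chr6:76811264-76811322 and the Rgn probe at chrX:19718765-19718824. The Pbld1 probe lies at chr10:62472647-62472706 and the Atoh7 probe at chr10:62496098-62496157, with 23391 bases between them. The Cfap299 probe lies at chr5:99042209-99042268 and the Shisal2b probe at chr13:105966281-105966340. The exon or UTR under each probe was not analysed here.

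Levels are given as log2 of the background-subtracted signal over the 75th percentile of the same array, so that 0 is a bright probe and values near -6 to -7 lie at the edge of detection, which differed between arrays. Pou5f1 stood at 6.2 and 4.79 on the TetON-Oct4 arrays and at 2.64 and 0.92 on the double transgenic arrays, and the other 6 did not detect it. None of the 10 arrays, induced groups included, read the Sox2 probe well above background, so it does not check the Sox2 labels. Sox21, another Sox family gene, stood at 3.33 and 1.40 in TetON-Sox2 on DOX and at 0.98 and 0.44 in the double transgenic group, against -3.28 to -4.92 elsewhere. All 12 enterocyte markers were among the genes tested, with a summed level of 217 to 1060 times an array's 75th percentile. The arrays came on 3 slides: the 4 TetON-Sox2 arrays shared the first, the 2 TetON-Oct4 arrays lay on the second, and the rtTA and double transgenic arrays shared the third. Xist was high on all 4 arrays of the third slide (2.98 to 3.89) and on 1 TetON-Oct4 array (2.62), and not above -6.01 elsewhere, while the Y-linked Eif2s3y had the opposite pattern, so slide and sex move together across most of the groups. The labels do not say whether the 2 arrays of a group are separate animals, so every p-value measures only the spread between these samples.

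The label held for 7 of the 8 genes by group mean and for 6 by array. Rgn had its highest mean in TetON-Oct4, not in the double transgenic group, and Shisal2b overlapped between these groups. For Nepn, Slc14a1, Ctnna2, Atoh7, Pbld1 and Cfap299 both double transgenic arrays lay above all 8 other arrays. The same was true of 1413 of the 19056 genes tested, or 7.41%, and a highest mean in the double transgenic group was found for 25.1% of genes. Since the genes were chosen on these levels, the order is a description.

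**Figure D1:**
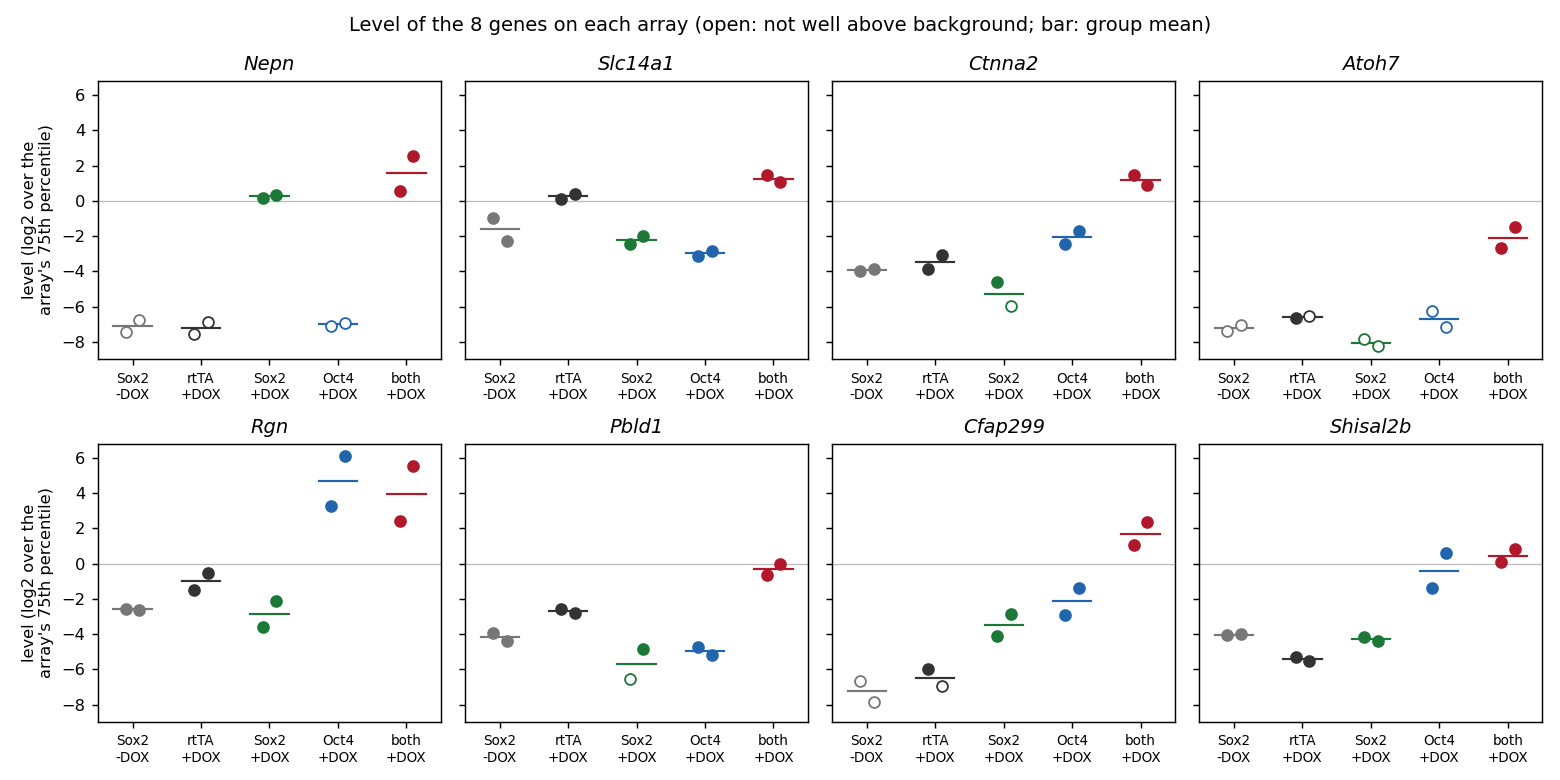
Level of each of the 8 genes (log2 over the array's 75th percentile, vertical axis) in the 5 groups (horizontal axis: Sox2 and Oct4 are the TetON mice, both is the double transgenic group); each point is 1 array, open where the probe was not well above background, and each bar is a group mean of 2 arrays. The double transgenic points are the highest in 6 panels, share the top with TetON-Oct4 for Shisal2b, and lie within the range of TetON-Oct4 or below it for Rgn.

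Nepn was detected on the 4 arrays of mice with induced Sox2 and on none of the other 6. It read 0.59 and 2.57 in the double transgenic group and 0.18 and 0.33 in TetON-Sox2 on DOX, with processed signals of 992 to 3500. In TetON-Sox2 without DOX it read -7.45 and -6.78, in TetON-Oct4 -7.08 and -6.92, and in rtTA -7.54 and -6.85, all of them at background. The step of 7.26 between TetON-Sox2 on DOX and the next group therefore exceeded the step of 1.32 between the double transgenic group and TetON-Sox2 on DOX, which rested largely on 1 of the 2 double transgenic arrays. Against rtTA the double transgenic mean was 8.77 higher, which is at least 318-fold given the detection limit of the rtTA arrays.

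Cfap299 had a step with each transgene and a further step with both. It read 1.03 and 2.34 in the double transgenic group, -2.94 and -1.36 in TetON-Oct4, and -4.10 and -2.85 in TetON-Sox2 on DOX. The controls read -6.0 and -6.96 in rtTA, where 1 of the 2 arrays was well above background, and -6.64 and -7.88 in TetON-Sox2 without DOX, where neither was. TetON-Oct4 and TetON-Sox2 on DOX overlapped with each other, and each stood clear of both control groups and of the double transgenic group. The double transgenic mean was 8.16 above rtTA (a 287-fold ratio, which includes an rtTA reading at background) and 3.83 above TetON-Oct4.

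Rgn and Shisal2b followed Oct4. Rgn, which has its gene on the X chromosome, read 3.30 and 6.09 in TetON-Oct4 and 2.42 and 5.54 in the double transgenic group, with signals of 6333 to 37030. It read -1.47 and -0.52 in rtTA, -3.62 and -2.10 in TetON-Sox2 on DOX and -2.55 and -2.63 in TetON-Sox2 without DOX. Each of the 4 arrays with the Oct4 transgene lay above the other 6, but the 2 arrays of each such group differed by about 3 units. In TetON-Oct4 the lower Rgn array had low Xist (-6.80) and the higher had high Xist (2.62), whereas both double transgenic arrays had high Xist (2.98 and 3.89). The part of sex in the Rgn levels was not tested.

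Shisal2b read -1.38 and 0.59 in TetON-Oct4 and 0.08 and 0.82 in the double transgenic group. The remaining groups were low and close together: -4.07 and -4.02 in TetON-Sox2 without DOX, -4.17 and -4.40 in TetON-Sox2 on DOX, and -5.28 and -5.51 in rtTA. Adding Sox2 to Oct4 was thus accompanied by a difference of 0.84 in the mean, smaller than the gap between the 2 TetON-Oct4 arrays. In both Oct4-carrying groups the array with less Pou5f1 had the higher scaled level of Rgn, Cfap299 and Shisal2b. That array also had the lower 75th percentile, 544 against 777 in TetON-Oct4 and 590 against 1180 in the double transgenic group. The unscaled Shisal2b signal of the double transgenic arrays went the other way, 1040 against 1246. With 2 arrays a group this is a description.

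Ctnna2 and Atoh7 had the widest gaps of the 8 between the double transgenic arrays and all others. Ctnna2 read 1.46 and 0.89 in the double transgenic group and -2.44 and -1.68 in TetON-Oct4. It read -3.87 and -3.05 in rtTA, -3.97 and -3.86 in TetON-Sox2 without DOX and -4.61 and -5.95 in TetON-Sox2 on DOX, where the lower array was not well above background. The signal of 3255 and 1096 in the double transgenic group compares with 110 on both rtTA arrays, and the mean difference of 4.64 is a 24.9-fold ratio. Ctnna1, the epithelial alpha-catenin, stayed between 6.03 and 6.92 on all 10 arrays.

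Atoh7 read -2.69 and -1.5 in the double transgenic group. Every other array lay between -8.26 and -6.27, and only 1 of those 8, an rtTA array, was well above background. This left a gap of 3.59 between the lower double transgenic array and the highest other array. Its signal stayed modest even so, at 183 and 208. The rtTA and TetON-Oct4 groups, next in order, overlapped and do not differ beyond their spread.

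Pbld1 and Slc14a1 shared another order, with rtTA second. Pbld1 read -0.64 and -0.03 in the double transgenic group and -2.59 and -2.79 in rtTA. It read -3.95 and -4.37 in TetON-Sox2 without DOX, -4.76 and -5.18 in TetON-Oct4, and -6.55 and -4.83 in TetON-Sox2 on DOX, the first of these not well above background. The arrays of the third slide thus all stood above those of the other slides. Within that slide the double transgenic mean exceeded rtTA by 2.36, a 5.12-fold ratio.

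For Slc14a1 the double transgenic arrays read 1.45 and 1.07 and the rtTA arrays 0.10 and 0.42. It read -0.95 and -2.27 in TetON-Sox2 without DOX, -2.44 and -2.00 in TetON-Sox2 on DOX and -3.13 and -2.84 in TetON-Oct4. The 4 arrays of the third slide thus stood above the other 6, and the difference between the double transgenic group and rtTA, within that slide, was 1.01, a 2.01-fold ratio. On the TetON-Oct4 array with high Xist, Slc14a1 stood at -2.84 and Pbld1 at -5.18, and on the other TetON-Oct4 array at -3.13 and -4.76. The part of sex in these levels was not tested. Slc14a1 is also carried by red blood cells, and the summed level of 6 erythroid markers was 0.995 to 1.51 in the double transgenic group, 6.86 to 11.7 in rtTA, 6.75 to 21.3 in TetON-Sox2 without DOX, 2.08 to 4.96 with it and 1.5 to 2 in TetON-Oct4, in multiples of an array's 75th percentile. Its part in the Slc14a1 levels was not tested. In whole ileum, fewer cells of a type and less RNA per cell cannot be told apart.

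The comparisons that leave out the double transgenic arrays set TetON-Sox2 or TetON-Oct4 against a control. They used limma with Benjamini-Hochberg adjustment over all 19056 genes and a threshold of 0.05, and the spread was estimated over all 10 arrays. The 8 genes were chosen with the levels of all 5 groups known, so the arrays compared here shared in the choice. Their adjusted p-values and counts of calls are therefore a description and not an independent test. Nepn, Atoh7 and Cfap299 also passed the filter on dim probes only through groups in which they are high. Within the TetON-Sox2 mice, DOX raised 2 of the 8 genes and lowered none, against 7.83% of all genes called (3.03% higher and 4.8% lower). Nepn rose by 7.37 ± 0.59 (SE, n = 2 arrays a group, adjusted p = 0.00085), at least 74.2-fold, and Cfap299 rose by 3.79 ± 0.74 (adjusted p = 0.023), at least 5.59-fold. The Nepn call held under each of 19 alternatives tried, including the authors' deposited values, where the difference was 7.25, and normexp background correction, where it was 3.27. The other 6 did not pass: Pbld1 differed by -1.53, Ctnna2 by -1.37, Atoh7 by -0.84, Slc14a1 by -0.61, Rgn by -0.27 and Shisal2b by -0.24. Atoh7 was at background on all 4 TetON-Sox2 arrays, so its value is not a measured size. The Cfap299 call was lost when any of the 4 TetON-Sox2 arrays was left out (adjusted p = 0.068 to 0.13 in limma) with normexp background correction, where the difference was 0.77, and with only the 2 groups compared in the fit (0.055).

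Oct4 without Sox2, set against rtTA, raised Shisal2b and Cfap299 and lowered Slc14a1, where 1.01% of all genes were called (0.724% higher and 0.283% lower). Shisal2b rose by 5.0 ± 0.58 (limma adjusted p = 0.0079), a 32.1-fold ratio, and Cfap299 rose by 4.33 ± 0.74 (adjusted p = 0.041), a 20.1-fold ratio. The Cfap299 ratio includes an rtTA reading at background and is not a measured size. Without a filter on dim probes the Cfap299 call was lost (limma adjusted p = 0.05). Slc14a1 fell by 3.24 on the log2 scale, with an SE of 0.44 (adjusted p = 0.018). Rgn differed by 5.69 ± 1.14, a larger value than Shisal2b's, but its arrays spread more and it did not pass (limma adjusted p = 0.066). Pbld1 differed by -2.28 (adjusted p = 0.098), Ctnna2 by 1.40 (adjusted p = 0.28), Nepn by 0.19 and Atoh7 by -0.12. Nepn was at background on every array of both groups, and Atoh7 on all but 1 rtTA array, so their values are not measured sizes. These groups lie on different slides, so slide and transgene cannot be told apart, and each of the 3 calls was lost when either rtTA array was left out (limma adjusted p = 0.076 for Shisal2b, 0.16 and 0.22 for Cfap299, 0.12 for Slc14a1). Without a TetON-Oct4 array Slc14a1 had 0.064 or 0.071 and Cfap299, without the second, 0.17, without either untreated TetON-Sox2 array Cfap299 had 0.06, without either double transgenic array Rgn had 0.034, and with normexp Shisal2b (2.47) and Cfap299 (1.44) did not pass.

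Sox2 on DOX set against rtTA gave 2 genes up and 2 down, against 8.38% of all genes called (3.23% higher and 5.14% lower). Nepn rose by 7.45 ± 0.59 (limma adjusted p = 0.00088), at least 127-fold, and Cfap299 rose by 3.0 ± 0.74 (adjusted p = 0.045). Pbld1 fell by 3.0 (SE 0.53, adjusted p = 0.016) and Slc14a1 fell by 2.48 (SE 0.44, adjusted p = 0.016). The remaining values were 1.12 for Shisal2b, -1.47 for Atoh7, -1.83 for Ctnna2 and -1.87 for Rgn, none of which passed. Atoh7 was at background on all but 1 rtTA array of these groups, so its value is not a measured size. Here too the groups lie on different slides, and Xist was high on both rtTA arrays and low on both TetON-Sox2 arrays on DOX. Slide, sex and transgene therefore cannot be told apart. Both genes that fell here had smaller differences of the same sign inside the TetON-Sox2 slide, -1.53 and -0.61, which did not pass. That of Pbld1 was -0.67 without the first treated array and -2.40 without the second (limma adjusted p = 0.018), and that of Slc14a1 was 0.05 without the first untreated array. Leaving out either rtTA array or the first TetON-Sox2 array on DOX ended both falls, with Pbld1 at -2.14 to -3.10 and Slc14a1 at -2.25 to -2.64. The Pbld1 fall was also lost with only the groups compared (limma adjusted p = 0.058). The Cfap299 call was lost without any of 6 arrays, at 2.38 to 3.63. It was also lost with normexp, where the difference was 0.70 (limma adjusted p = 0.32), without a filter on dim probes (0.063) and with only the groups compared (0.051).

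The rtTA mice on DOX and the TetON-Sox2 mice without it were set against each other as controls. They differ in transgene, DOX, slide and, by Xist, sex. None of the 8 genes passed, and limma called 0 of 19056 genes (percent called 0), with 1071 at an unadjusted p under 0.05. This does not show that the groups are alike. Xist had means of 3.17 in rtTA and -8.11 in TetON-Sox2 without DOX and was not called. Its TetON-Oct4 arrays, which share in the estimate of spread, had an SD of 6.67. Among the 8 genes the values farthest from 0 were 1.87 ± 0.44 for Slc14a1 (limma adjusted p = 0.45), 1.60 ± 1.14 for Rgn, 1.47 ± 0.53 for Pbld1 and -1.36 ± 0.58 for Shisal2b. Nepn differed by -0.08 between these groups, with neither above background.

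**Figure D2:**
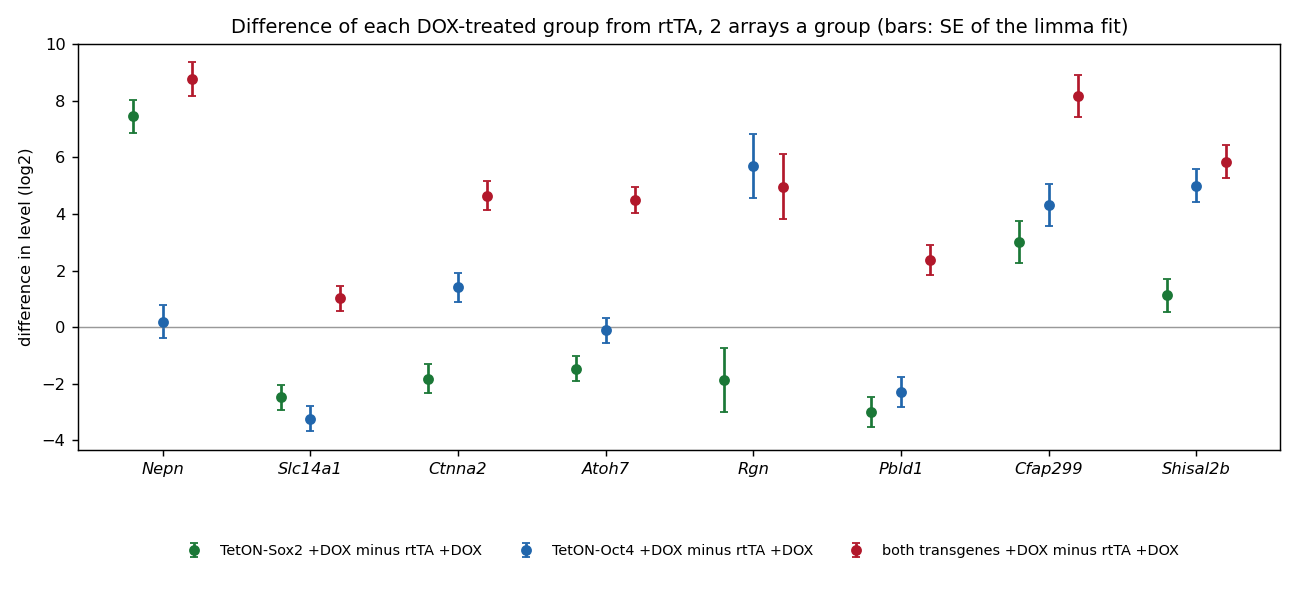
Difference of each DOX-treated transgenic group from rtTA on DOX (log2, vertical axis) for the 8 genes (horizontal axis), with bars of 1 SE from the limma fit and 2 arrays in every group. Nepn lies far above 0 with Sox2 and with both, Shisal2b and Rgn with Oct4 and with both, Cfap299 in all 3 groups, and Slc14a1 and Pbld1 lie below 0 with either transgene alone and above 0 with both.

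The values with both transgenes were set beside the sum of the log2 differences with each alone, which stands for a product of folds. Of the 8 genes, 4 lay near that sum, and all of these values share the rtTA arrays. For Cfap299 (8.16 with both, 7.34 as the sum), Shisal2b (5.85 and 6.12), Nepn (8.77 and 7.64) and Rgn (4.97 and 3.82) the value with both transgenes lay within 1.16 of the sum. The SE of the difference from the sum was 0.81 to 1.62 for these genes. For Ctnna2 (4.64 and -0.43), Atoh7 (4.49 and -1.60), Slc14a1 (1.01 and -5.72) and Pbld1 (2.36 and -5.28) it lay 5.07 to 7.64 above it. The sum for Atoh7 sets undetected readings against each other (1 of the 6 arrays was well above background), so its value is not a measured size. Nepn was at background on both rtTA and both TetON-Oct4 arrays, and Cfap299 on 1 of 2 rtTA arrays. Their nearness to the sum therefore rests partly on readings at background. With normexp the Cfap299 differences from rtTA were 0.70 with Sox2 and 1.44 with Oct4. The normexp value with both is not given here, so nearness to the sum under normexp is not shown. The difference from the sum counts the 4 arrays of the third slide with a plus sign and 4 arrays of the other slides with a minus sign. Slide and joint response therefore cannot be told apart. Xist was high on all arrays with the plus sign and, of those with the minus sign, on 1 TetON-Oct4 array. The part of sex was not tested. The difference from the sum passed limma's test for 1.42% of all genes, and no test is given for the 8 genes, which were chosen on these arrays.

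**Figure D3:**
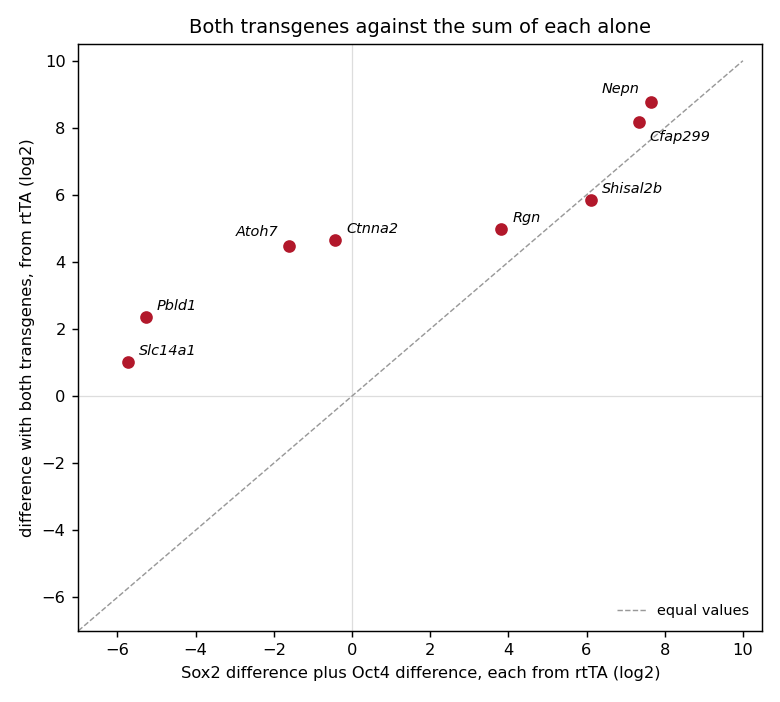
Difference of the double transgenic group from rtTA (vertical axis, log2) against the sum of the TetON-Sox2 and TetON-Oct4 differences from rtTA (horizontal axis, log2), all on DOX; each point is a gene, the dashed line marks equal values, and both axes use the same rtTA arrays. Nepn, Cfap299, Shisal2b and Rgn lie near the line, and Ctnna2, Atoh7, Slc14a1 and Pbld1 lie 5.07 to 7.64 above it, Atoh7 with a sum made of readings mostly at background. The rtTA readings of Nepn were at background on both arrays, and those of Cfap299 on 1 of 2.

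Further probes were present for 3 of the genes. A second Ctnna2 probe followed the first, at -0.32 and -1.03 in the double transgenic group, -4.22 and -3.19 in TetON-Oct4 and -5.62 and -5.08 in rtTA. The third Ctnna2 probe was detected on only 1 of the 10 arrays, which was of the double transgenic group. The second Slc14a1 probe kept the order with rtTA next to the double transgenic group (-1.60 and -1.12 against -1.02 and -0.90), and it fell by 2.85 with Oct4 against rtTA (limma adjusted p = 0.035). Its double transgenic arrays exceeded rtTA by 0.40, less than the 1.01 of the first probe. Atoh7's second probe was detected on none of the 10 arrays, so the Atoh7 pattern rests on 1 probe.

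**Figure D4:**
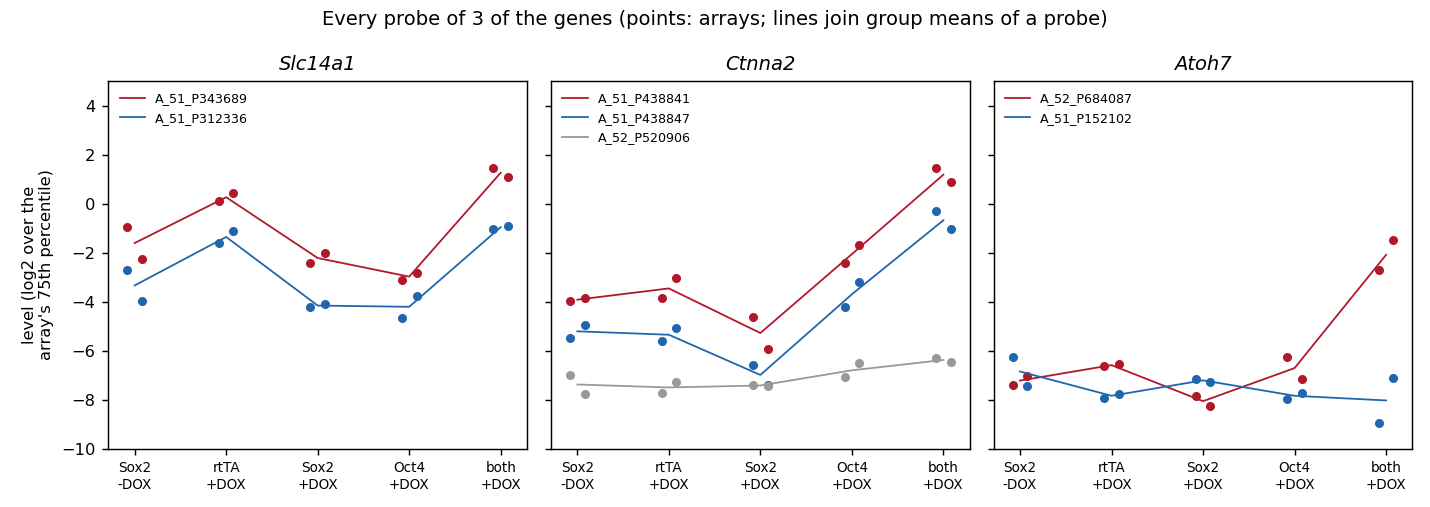
Level (log2 over the array's 75th percentile, vertical axis) of every probe of Slc14a1, Ctnna2 and Atoh7 in the 5 groups (horizontal axis); points are arrays and lines join the means of a probe over groups, red marking the probe used throughout. The second Slc14a1 and second Ctnna2 probes run parallel to the first, while the third Ctnna2 probe and the second Atoh7 probe stay near -6 to -9.

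Pbld1 and Atoh7 are next to each other in chromosome order among the genes tested, and both stood highest in the double transgenic group. Of the 10 other genes within 5 places of either, none was called between the double transgenic group and rtTA, where limma called 6.34% of all genes (3.19% higher and 3.15% lower), and their differences ran from -0.58 to 0.31. Pbld2, the close relative of Pbld1 on its other side, differed by -0.58 ± 0.40. Around all 8 genes, 7 of 70 neighbours within 5 places were called, or 10%, with 1 higher and 6 lower. The 1 that rose was Pard6g by Slc14a1 (1.82 ± 0.33, limma adjusted p = 0.021), and the lowest was Reg3a, an antimicrobial lectin near Ctnna2 (-5.02 ± 0.41, adjusted p = 0.001). The other 5 that fell were 8030462N17Rik and Pstpip2 by Slc14a1 and Antxr2, Prkg2 and Rasgef1b by Cfap299, at -1.55 to -3.21. Of these 7 calls 6, all but Reg3a, were lost under at least 1 alternative, and without either rtTA array in each case 6 did not pass (limma adjusted p = 0.058 to 0.22). Slc14a2, the adjacent urea transporter gene, differed by 2.05 ± 0.90 and did not pass (adjusted p = 0.21).

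**Figure D5:**
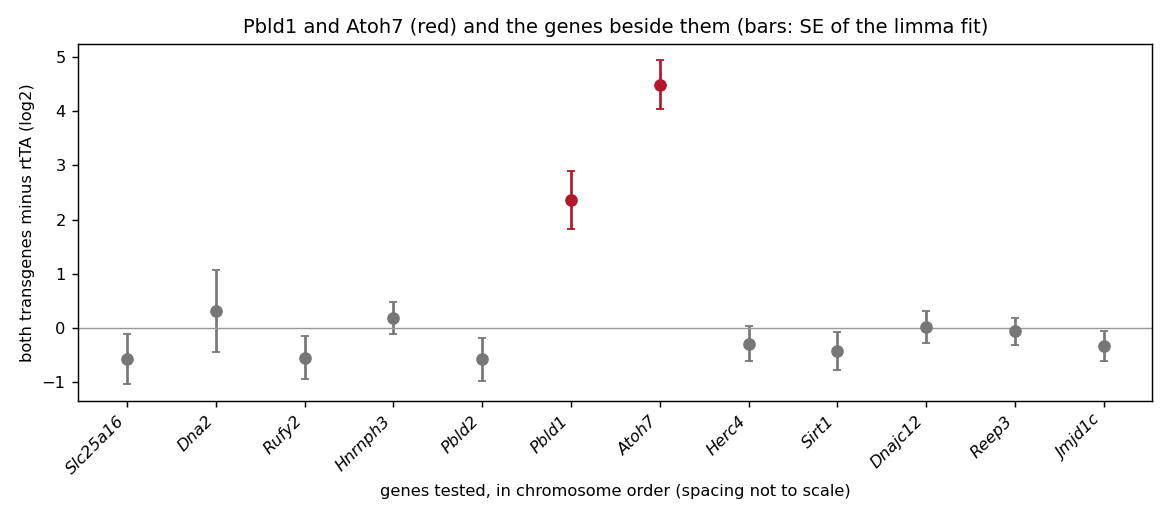
Double transgenic minus rtTA difference (log2, vertical axis; bars are 1 SE of the limma fit) for Pbld1 and Atoh7 (red) and the 10 tested genes beside them (grey), in chromosome order with spacing not to scale. The 10 neighbours lie between -0.58 and 0.31, and Pbld1 and Atoh7 at 2.36 and 4.49.

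Promoter windows of RefSeq genes on GRCm38.p6 were searched on both strands for the octamer ATGCAAAT, to which Oct4 binds, the Sox core CATTGT, and the composite Sox-Oct motif, which contains the core. The windows run from 250 bases before a gene start to 50 after it, and 6 windows of 5 of the genes (Ctnna2, Nepn, Pbld1, Atoh7 and Shisal2b) were searched. Only the first Pbld1 window held a match of these exact letters, with 2 matches of CATTGT on the opposite strand, at 39 and 26 bases before the start. Variants of these letters were not searched, so a window without a match may still hold another form of a site. Among 32851 such windows 3512 held the Sox core, 526 (1.6%) the octamer and 2 (0.00609%) the composite. The 250 bases before the start are shown for Pbld1 (chr10:63060463-63060712, plus strand), because it holds the matches, marked in capitals, for Atoh7 (chr10:63099535-63099784, plus strand), because it is the gene beside Pbld1, and for Nepn (chr10:52391358-52391607, plus strand), because its difference was the largest.
Pbld1: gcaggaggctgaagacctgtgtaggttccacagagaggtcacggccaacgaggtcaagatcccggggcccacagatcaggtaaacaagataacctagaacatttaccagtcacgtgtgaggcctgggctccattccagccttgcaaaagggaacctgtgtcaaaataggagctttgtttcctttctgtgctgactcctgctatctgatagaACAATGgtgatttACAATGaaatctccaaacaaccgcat
Atoh7: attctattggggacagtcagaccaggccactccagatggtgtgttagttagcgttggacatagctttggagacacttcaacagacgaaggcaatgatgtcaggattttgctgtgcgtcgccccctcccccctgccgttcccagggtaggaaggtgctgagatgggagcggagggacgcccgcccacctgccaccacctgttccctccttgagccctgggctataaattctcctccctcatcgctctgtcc
Nepn: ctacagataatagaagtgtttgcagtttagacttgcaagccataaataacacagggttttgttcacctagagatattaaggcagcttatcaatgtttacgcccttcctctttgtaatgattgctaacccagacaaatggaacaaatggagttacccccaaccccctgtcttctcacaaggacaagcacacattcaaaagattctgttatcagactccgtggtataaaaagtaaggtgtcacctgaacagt

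A match of these letters is a description of the window and no evidence of binding. Among 160 tested genes of 11 lists drawn up for the roles of the 8 genes and of the transgenes, 9 rose and 4 fell between the double transgenic group and rtTA in limma, against 6.34% of all genes called. Of 6 Shisa family genes, 18 proneural and related helix-loop-helix factors, 15 genes of ascorbate and glucuronate metabolism and 13 small leucine-rich proteoglycans none passed, with 0, 4, 4 and 1 at an unadjusted p under 0.05 and medians of -0.03, -0.56, -0.35 and -0.56, beside a median of 0.07 over all genes. Of 16 catenins and classical cadherins only Cdh11, a mesenchymal cadherin, passed, at -1.39 ± 0.28 (adjusted p = 0.027). It was also called with Sox2 against no DOX, at -1.12.

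Among 17 urea transport and urea cycle genes, Slc25a15, the mitochondrial ornithine carrier, fell by 2.17 (SE 0.35, limma adjusted p = 0.014) and Arg2, the mitochondrial arginase, fell by 3.47 (SE 0.71, adjusted p = 0.03), while the median was -0.75. Both were also called with Sox2 against no DOX, at -1.43 and -3.49. Of 17 cilium genes, 2 rose. Foxj1, the master factor of motile cilia, stood at -1.44 and -2.11 in the double transgenic group and between -8.12 and -5.94 on the other 8 arrays, and it rose against rtTA by 4.68 ± 0.59 (limma adjusted p = 0.0062). Dnah5, an outer dynein arm heavy chain, rose by 5.37 ± 1.15 (adjusted p = 0.035), with 1 of 2 rtTA arrays above background. The other 15 cilium genes did not pass, and the list's median was 0.21. With Sox2 against no DOX only Tppp3, a microtubule-binding protein, passed (1.65 ± 0.33, adjusted p = 0.025), and with Oct4 against rtTA none did, with 5 at an unadjusted p under 0.05.

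The list of embryonic stem cell targets of Oct4 and Sox2 gave 3 genes up and 1 down of 16, with a median of 0.45. Nr0b1, a nuclear receptor of pluripotent cells, was at background on the other 8 arrays and stood at -1.81 and -1.47 in the double transgenic group, at least 34.2-fold above rtTA (limma adjusted p = 0.00017). Fbxo15, an F-box gene of embryonic stem cells, was at background in rtTA and rose at least 18.1-fold (adjusted p = 0.021), and Phc1, a Polycomb subunit, rose by 1.63 ± 0.26 (adjusted p = 0.014). Klf4, which is also an epithelial differentiation factor, fell by 2.46 (SE 0.52, adjusted p = 0.033). Of 17 gut endoderm factors Foxa2 rose by 1.37 ± 0.29 (adjusted p = 0.031) and the median was -0.13. Klf4 and Foxa2 were also called with Sox2 against no DOX, at -2.56 and 2.06, whereas Nr0b1, Fbxo15 and Phc1 were not.

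Rgn and Pbld1 are known from liver and kidney. Of 14 hepatocyte genes Alb and Ahsg rose between the double transgenic group and rtTA, with a list median of -0.10. Alb, serum albumin, followed the same groups as Rgn and Shisal2b, at -4.50 and -3.61 in TetON-Oct4 and -4.99 and -3.63 in the double transgenic group, and was at background on the other 6. It rose at least 6.41-fold in TetON-Oct4 against rtTA and at least 5.38-fold in the double transgenic group (limma adjusted p = 0.0048 and 0.004). Ahsg, fetuin-A, was at background in rtTA and rose at least 25.3-fold (adjusted p = 0.021). With Sox2 against no DOX it was called too, at least 20.4-fold higher. Of 11 kidney tubule genes Umod, uromodulin, was at background in rtTA and rose at least 29.8-fold (limma adjusted p = 0.0072, and 0.1 with normexp), with a list median of 0.15, and it was bright in TetON-Sox2 on DOX (2.92 and 2.16) and dark in TetON-Oct4 (-8.34 and -7.99). Of these 13 called genes only Nr0b1 kept its call under each of 18 alternatives, Foxj1 lost it without the first rtTA array (limma adjusted p = 0.062) and Alb lost it with normexp correction (0.067). Leaving out the first or second rtTA array ended 11 or 8 of the 13 calls, and the first or second double transgenic array 8 or 4 (adjusted p = 0.058 to 0.22).

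Across the 10 arrays the 8 genes were unevenly alike, with pairwise correlations of level from 0.10 (Slc14a1 and Shisal2b) through a median of 0.65 to 0.92 (Ctnna2 and Atoh7), and 11 of 28 pairs below 0.5. Slc14a1 with Pbld1 gave 0.91, Rgn with Shisal2b 0.89 and Cfap299 with Shisal2b 0.86. The 10 points share 5 groups and 3 slides, so these values describe group patterns. The genes most like the standardized mean of the 8 were Faxc and Nrcam (both r = 0.98 over 10 arrays), followed by Nxn, Ucma, Ccdc3, Wif1, Ehmt1, 1700028J19Rik, Nr0b1 and 4930432K21Rik (0.96 to 0.97). Faxc stood at -1.84 and -1.49 in the double transgenic group, at -5.07 and -3.80 in TetON-Oct4 and between -6.26 and -5.21 elsewhere. Nrcam, a neural cell adhesion molecule, stood at -1.01 and -0.28 in the double transgenic group and between -4.94 and -3.84 on the other 8 arrays.

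The gene most like each member differed from member to member. Nepn was most like Fam172a (r = 0.995), Atoh7 like Kcne1l (0.978), Rgn like Shisa5 (0.977), Cfap299 like B230114P17Rik (0.976), Slc14a1 like Vezf1 (0.975), Shisal2b like Alb (0.972), Ctnna2 like Zfp532 (0.962) and Pbld1 like BB283564 (0.956). A high correlation did not mean a like size of difference: Fam172a moved from -0.55 in rtTA to 0.77 in TetON-Sox2 on DOX, where Nepn moved from -7.19 to 0.26. Vezf1 differed by 0.07 between the double transgenic group and rtTA, and its means were higher on the third slide (1.80 and 1.73) than on the others (1.21 to 1.32), the pattern described for Slc14a1.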

How the data were processed

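Total RNA of mouse ileum was amplified and labelled with Cy3 per the labels, and read on 10 one-colour Agilent arrays of 45018 spots. The authors deposited scanner files whose processed intensity is background-subtracted and detrended, without normalization between arrays, per the file headers; spot and local background intensity stand beside it. The submitters' processing notes name Feature Extraction 9.1, whereas the file headers give 9.5.3.1, 10.7.3.1 and 10.7.1.1 for the 3 slides. The authors also deposited a table of normalized ratio values and raw intensity for the 4 TetON-Sox2 arrays, whose scaling method was not known here.

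Control and outlier spots were left out, spots of a probe averaged, and the log2 of the processed intensity taken minus the array's 75th percentile (a signal of 544 to 1613, per the deposited files). A gene was tested where a probe was well above background on both arrays of a group (28766 probes, 19056 genes), through the listed probe for the 8 genes and through its brightest probe otherwise. All 8 passed that filter, Nepn, Atoh7 and Cfap299 only through groups in which they are high. Probes were named through RefSeq accessions where possible (33022 of 41143). limma 3.58.1 in R 4.3.3 fitted 1 mean per group over all 10 arrays, with 5 residual degrees of freedom. A gene counts as called at an adjusted p under 0.05. Where a probe was below background on every array of a group, "at least" folds use the higher of its own signal and the dimmest signal well above background.

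Members and lists were chosen with earlier results of these data known. Named genes are the 8 members, up to 4 called genes of each of 26 lists, the adjacent and called neighbours within 5 places, and the genes most like the members. On data simulated for TetON-Sox2 on DOX against no DOX (19056 genes, 200 of them changed), the test recovered 2%, 48.1%, 85.5% and 98.7% of changes of 1, 2, 3 and 5 log2 units, with 5.65% false calls. The simulated noise was independent, without slide, sex or deviations shared by an array. Recovery also depends on the share of genes changed, so it may differ in the measured data. Alternatives were normexp with quantile normalization, quantile normalization, no filter on dim probes, every probe tested, a variance trend, fits of the compared groups alone, a block for replicate number or for slide, the authors' values, and each array left out. The number of arrays limits the precision: the median SE of a difference was 0.393. 1 called gene of the marker lists is not reported here.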

Additional observations from a re-analysis of the deposited data

Results flagged for a closer look

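For 6 genes named above, the Sox2 difference with Oct4 present (double transgenic minus TetON-Oct4) was unlike the Sox2 difference without it (TetON-Sox2 on DOX minus rtTA), by limma's interaction term adjusted over all 19056 genes, 1.42% of which passed. Kcne1l, the gene most like Atoh7, differed by 7.04 ± 0.88. Foxj1 of the cilium list differed by 6.47 ± 0.83, and Nr0b1 by 5.72 ± 0.51. Both were at background with either transgene alone, and Nr0b1 in rtTA too. Among the genes most like the mean of the 8, 4930432K21Rik differed by 5.48 ± 0.68, Nrcam by 3.55 ± 0.51 and Ccdc3 by 3.27 ± 0.51. 4930432K21Rik was at background in rtTA. Kcne1l had means of -8.22 in TetON-Sox2 on DOX and -6.81 in TetON-Oct4, below the dimmest signals well above background there. The values of Kcne1l, Foxj1, Nr0b1 and 4930432K21Rik are therefore not measured sizes. All 6 were picked on the same arrays, Foxj1 and Nr0b1 for a call between the double transgenic group and rtTA and the others for likeness to the 8 genes, so their values are a description. In all 6 the arrays of the third slide count with a plus sign and the arrays of the other slides with a minus sign, so slide and interaction cannot be told apart. The part of sex was not tested. No group was large enough for a check of single outlying samples.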

How the results depend on the processing

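Of 560 values of the 8 genes in the 4 tested comparisons under the alternatives, 503 kept their direction and side of the threshold, 37 lost a call, 9 gained one and 11 changed sign, and all 11 belonged to differences that had not passed. In TetON-Sox2 on DOX against no DOX, Atoh7 came to 0.00 with normexp correction, Shisal2b to 0.00 with quantile normalization, and leaving out 1 array gave Slc14a1 -1.27 to 0.05 (0.05 without the first untreated array) and Rgn -1.03 to 0.49 (0.49 without the first treated array). In TetON-Oct4 against rtTA, normexp gave Nepn -0.03 and Atoh7 0.03, and leaving out 1 array gave Nepn -0.16 to 0.54 and Atoh7 -0.56 to 0.31, the opposite signs coming without the first rtTA and second TetON-Oct4 array. Between the controls Nepn was 0.04 with quantile normalization and -0.43 to 0.27 with 1 array left out (0.26 without the second untreated array), and Vezf1, the gene most like Slc14a1, was -0.03 to 0.17 between the double transgenic group and rtTA. The cause was not tested for any of these. Counts of called genes moved by over 1.5 times as follows. Without a filter on dim probes they were 776 for the double transgenic group against rtTA, 933 for Sox2 induction, 1045 for TetON-Sox2 on DOX against rtTA, 546 for the double transgenic group against TetON-Oct4 and 148 for the interaction. With only the groups compared they were 473, 619, 936 and 68 in the same order without the interaction, 52 against TetON-Sox2 on DOX and 13 between the controls. Normexp gave 111 for TetON-Oct4 against rtTA and 173 for the interaction, and the authors' values gave 693 for Sox2 induction. Leaving out 1 array gave 105 to 1249 called genes for the double transgenic group against rtTA, 165 to 1745 for Sox2 induction, 35 to 215 for TetON-Oct4 and 195 to 2178 for TetON-Sox2 against rtTA, 0 to 11 between the controls, 81 to 679 against TetON-Sox2, 312 to 812 against TetON-Oct4 and 24 to 555 for the interaction. With 1 array left out, 6 to 7 of the 8 genes had every double transgenic array above all the others. The labels give each group replicates 1 and 2 without saying that they pair, and same-numbered arrays deviated together with correlations of -0.13 to 0.27. With the replicate number as a block the counts were 1201, 1477, 215 and 1675 for the double transgenic, Sox2, TetON-Oct4 and TetON-Sox2 against rtTA comparisons, and 2 between the controls, as with a variance trend (2). Rgn then passed in TetON-Oct4 against rtTA (limma adjusted p = 0.018) and Cfap299 did not in TetON-Sox2 against rtTA (0.05). Low signal limits Nepn, Atoh7 and Cfap299 in the groups where they were at background. In the simulated data, changes of 1 log2 unit were mostly out of reach of 2 arrays a group.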

Other observations

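Markers of 15 cell types gave 152 tested genes, of which 3 rose and 4 fell between the double transgenic group and rtTA in limma, beside 6.34% of all genes called. S100a9 and S100a8, calcium-binding proteins abundant in granulocytes, rose, S100a9 by 5.38 ± 0.58 (adjusted p = 0.0036) and S100a8, at background in rtTA, at least 13.8-fold (adjusted p = 0.019), while the other 10 macrophage and granulocyte markers did not pass and the list's median was 0.10. The falls were Slc5a1, the sodium-glucose transporter of enterocytes (-2.60 ± 0.55, adjusted p = 0.034), the gut hormones Pyy (-1.89 ± 0.35, adjusted p = 0.021) and Cck (-2.98 ± 0.61, adjusted p = 0.03), and Olfm4, a crypt base gene (-3.50 ± 0.80, adjusted p = 0.042). With Sox2 against no DOX S100a9, Slc5a1, Pyy and Cck were called in the same direction, and S100a8 and Olfm4 were not called. Of the 7 calls only S100a9 held under each of 18 alternatives, and leaving out either rtTA array ended 6 (limma adjusted p = 0.058 to 0.22). The summed level of 12 enterocyte markers was 358 and 831 in the double transgenic group and 674 and 1060 in rtTA, in multiples of an array's 75th percentile. Slc12a2, a sodium-potassium-chloride carrier, stood at 1.74 and 2.13 in the double transgenic group, 1.82 and 2.08 in rtTA, and 0.14 to 1.23 on the other 6 arrays, so that like Slc14a1 it stood higher on the third slide.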
